A study of Urosaurus graciosus
Urosaurus ornatus and Urosaurus graciosus and Urosaurus ornatus with 18 samples.

Results

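The genes described here encode chaperones and proteases that work inside mitochondria. Membership was set by name: TRAP1, HSPD1, HSPE1, HSPA9, LONP1, CLPP and CLPX, 7 symbols in all. Rows with 5 of these symbols (HSPD1, HSPA9, TRAP1, LONP1 and CLPX) were present among the 22773 rows of the count table, and all 5 passed the filter on low counts with 15856 genes in all. HSPE1, which encodes the lid of the HSPD1 chaperonin, and CLPP, the peptidase that CLPX feeds, were not analysed here.

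Counts came from RNA sequencing of whole liver in 18 male lizards of the genus Urosaurus, all held for 48 h at a set temperature. There were 3 hybrids at 40 °C (animals I, K and X) and 3 at 36 °C (A, B and D), 3 U. graciosus at 40 °C (P, Q and T) and 3 at 36 °C (J, R and S), and 3 U. ornatus at 40 °C (L, N and O) and 3 at 36 °C (E, F and H). The title of the series says that the hybrids carry introgressed mitochondrial DNA; neither the parent it came from nor the animals' ages are given in the sources used here. Each animal was sampled once, at one temperature, so the heat differences compare separate animals.

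Most mitochondrial proteins are made in the cytosol and threaded into the matrix unfolded. There HSPA9, the mitochondrial HSP70, pulls them in and holds them, and the HSPD1 chaperonin encloses them while they fold. TRAP1 is the HSP90 family member of the matrix. LONP1 is an ATP-driven protease that degrades damaged and oxidised matrix proteins, and CLPX is the ring-shaped unfoldase that selects substrates for the CLPP peptidase. In mammals, transcripts of several of these genes rise when unfolded protein builds up in the matrix, a response called the mitochondrial unfolded protein response.

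The libraries held 15780346 to 35002548 counts, and a member gene had 400 to 46548 counts in an animal. Levels are given as CPM, the count relative to the TMM-scaled library total, which allows a gene to be compared between animals but not with another gene, since transcript lengths were not used. Liver transcripts were abundant: TF, the plasma iron carrier transferrin, averaged 39475 CPM and FGA, a fibrinogen chain, 11900 CPM. Summed over each marker list, hepatocyte genes ran from 20736 to 126887 CPM over the animals, stellate cell and fibroblast genes from 101 to 2970, macrophage genes from 261 to 1170, endothelial genes from 171 to 288, cholangiocyte genes from 39.9 to 1201, erythrocyte genes from 20.4 to 464, skeletal muscle genes from 5.66 to 136, lymphocyte genes from 7.97 to 55.5 and kidney and gonad genes from 1.32 to 24.3. At 40 °C, 1 animal in each lineage stood apart: hybrid X, U. graciosus T and U. ornatus O. HSP90AA1, the stress-inducible cytosolic HSP90, was at 1694 CPM in X, 10847 in T and 2467 in O, against at most 627 in any other animal. X and O also had the lowest hepatocyte sums (25422 and 20736 CPM) and the highest cholangiocyte sums (1201 and 440 CPM), and X the highest stellate sum (2970 CPM). The cholangiocyte sum of X was mostly 1 gene, SPP1, which reached 1145 CPM. SOX9, the next gene of that list by mean, was at most 30.7 CPM in any animal. The part of these differences in the results below was not tested, and heat differences are also given without X, T and O. In whole tissue, fewer cells of a type and less RNA per cell cannot be told apart.

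HSPD1, the chaperonin, was at 547 CPM in I, 492 in K and 1628 in X among hybrids at 40 °C, against 311 in A, 626 in B and 314 in D among hybrids at 36 °C. In U. graciosus it was at 410, 389 and 999.7 CPM in P, Q and T at 40 °C, against 344, 267 and 331 in J, R and S at 36 °C. In U. ornatus it was at 293, 269 and 660 CPM in L, N and O at 40 °C, against 234, 457 and 178 in E, F and H at 36 °C. The U. graciosus groups did not overlap, while in hybrids and in U. ornatus X and O alone lay above every animal of their lineage at 36 °C. Hybrid B and U. ornatus F, both at 36 °C, stood above the other animals of their groups. Over the 3 lineages HSPD1 differed by 0.84 ± 0.31 on the log2 scale (SE, 95% interval 0.17 to 1.503; edgeR quasi-likelihood test, Benjamini-Hochberg adjusted p = 0.182), so the difference did not pass the threshold of 0.05. Without X, T and O the value was 0.20 ± 0.22 (adjusted p = 0.707).

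HSPA9, the mitochondrial HSP70, was at 385, 353 and 682 CPM in the hybrids at 40 °C (I, K, X), against 240.2, 470.03 and 281 at 36 °C (A, B, D). In U. graciosus it was at 276, 281 and 312 CPM at 40 °C (P, Q, T), against 311, 267 and 352 at 36 °C (J, R, S). In U. ornatus it was at 167, 172 and 250.4 CPM at 40 °C (L, N, O), against 274, 316 and 168 at 36 °C (E, F, H). The groups overlapped in every lineage; hybrid X lay above, and U. ornatus L just below, all animals of their lineage at 36 °C. The mean heat difference of HSPA9 was 0.02 ± 0.19 (SE, 95% interval -0.38 to 0.42; edgeR adjusted p = 0.978), and it was -0.20 ± 0.18 without X, T and O.

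TRAP1, the matrix HSP90, was at 88.7, 83.0 and 160.5 CPM in the hybrids at 40 °C (I, K, X), against 54.6, 93.2 and 59.5 at 36 °C (A, B, D). In U. graciosus it was at 67.0, 66.5 and 71.2 CPM at 40 °C (P, Q, T), against 105.3, 62.0 and 55.1 at 36 °C (J, R, S). In U. ornatus it was at 46.9, 34.3 and 61.1 CPM at 40 °C (L, N, O), against 30.2, 36.4 and 36.2 at 36 °C (E, F, H). Hybrid X and U. ornatus L and O exceeded their own lineage at 36 °C, and no 40 °C animal lay below it. The mean heat difference was 0.34 ± 0.18 (SE, 95% interval -0.03 to 0.72; edgeR adjusted p = 0.323), and 0.13 ± 0.16 without X, T and O.

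LONP1, the Lon protease, was at 40.1, 37.9 and 68.7 CPM in the hybrids at 40 °C (I, K, X), against 27.1, 32.9 and 30.5 at 36 °C (A, B, D). In U. graciosus it was at 24.6, 28.0 and 39.5 CPM at 40 °C (P, Q, T), against 28.6, 24.8 and 26.8 at 36 °C (J, R, S). In U. ornatus it was at 36.8, 25.9 and 36.2 CPM at 40 °C (L, N, O), against 32.2, 28.2 and 32.1 at 36 °C (E, F, H). The hybrid groups did not overlap: I, K and X all lay above A, B and D. In the parental species the 40 °C animals lay on both sides, with T, L and O above and P and N below every animal of their lineage at 36 °C. The mean heat difference was 0.33 ± 0.14 (SE, 95% interval 0.04 to 0.62; edgeR adjusted p = 0.217), and 0.12 ± 0.10 without X, T and O.

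CLPX, the unfoldase of the ClpXP protease, was the only member whose mean heat difference was negative in edgeR with all animals. It was at 149, 119 and 72.3 CPM in the hybrids at 40 °C (I, K, X), against 180.0, 142 and 148 at 36 °C (A, B, D). In U. graciosus it was at 113, 169 and 123 CPM at 40 °C (P, Q, T), against 223, 160.1 and 153 at 36 °C (J, R, S). In U. ornatus it was at 74.3, 76.0 and 69.5 CPM at 40 °C (L, N, O), against 92.7, 99.5 and 123 at 36 °C (E, F, H). The U. ornatus groups did not overlap, and K, X, P and T were also below every 36 °C animal of their lineage. Hybrid I and U. graciosus Q were not. These positions rest on CPM scaled by TMM, where a higher TMM factor lowers the CPM. The factors were 1.10, 1.18 and 1.35 in L, N and O, against 1.01, 0.891 and 0.939 in E, F and H. As counts over the library total, without TMM factors, the U. ornatus groups overlapped. O (1485 of 15780346 counts) then lay above E (1957 of 20986235) and F (2160 of 24356354). N (2230 of 24825980) also lay above F. Marker sums of the U. ornatus moved with temperature too: hepatocyte genes summed to 20736 to 41805 CPM in the 3 animals at 40 °C, against 54610 to 78846 in the 3 at 36 °C, and skeletal muscle genes to 20.9 to 56.2 CPM at 40 °C, against 10.2 to 17.3 at 36 °C. In U. graciosus macrophage genes summed to 261 to 344 CPM at 40 °C, against 409 to 442 at 36 °C. Cholangiocyte genes of U. graciosus summed to 75.9 to 80.1 CPM at 40 °C, against 55.2 to 74.8 at 36 °C. The part of these sums in the heat values of U. ornatus and of U. graciosus was not tested. The mean heat difference was -0.46 ± 0.15 (SE, 95% interval -0.78 to -0.15; edgeR unadjusted p = 0.00680, adjusted p = 0.135). DESeq2 gave -0.47 with an adjusted p of 0.0400 and called CLPX, in a test where 2.46% of all genes were called lower. The edgeR value without X, T and O was -0.35 ± 0.14 (adjusted p = 0.254).

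**Figure D1:**
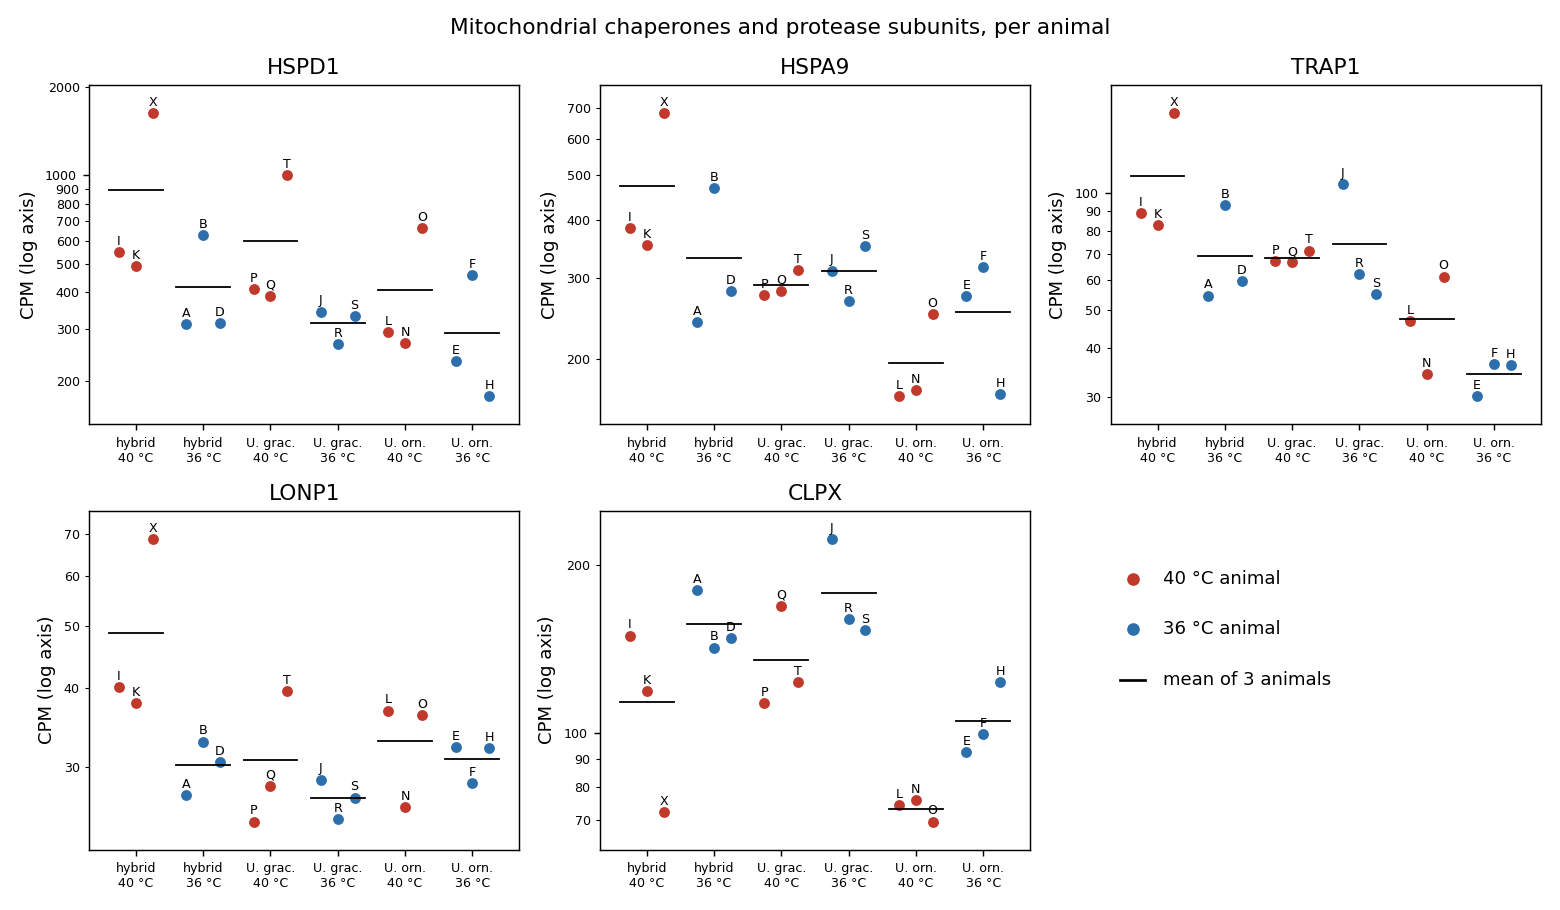
CPM (log axis) of each gene in each animal, by lineage and temperature; letters name the animals and bars mark the mean of 3 animals. HSPD1 is highest in X, at 1628 CPM, and CLPX in the 3 U. ornatus at 40 °C, at 69.5 to 76.0 CPM, lies below the 3 at 36 °C. As counts over the library total these CLPX groups overlap.

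Across the 5 genes, then, edgeR called none for the mean heat difference, in a comparison that called 0.996% of the 15856 genes tested (85 higher and 73 lower). At an unadjusted p under 0.05 there were 3 of the 5 (HSPD1, LONP1 and CLPX) and 2837 of all genes. Against all genes, whose median difference was 0.03, HSPD1 stood at the 94.3 percentile and CLPX at the 10.9 percentile. The counts of single animals show the same spread. HSPD1 lay above every 36 °C animal of its lineage in 5 of the 9 animals at 40 °C, as did at least 5 in 16.4% of all genes, and LONP1 in 6 of 9, as did at least 6 in 8.19%. CLPX lay below in 7 of 9, as did at least 7 in 3.22%. U. ornatus N and O did so only on the TMM scale, not as counts over the library total. TRAP1 lay above in 3 of 9, and HSPA9 above in 1 and below in 1. Without X, T and O, HSPD1 lay above in 2 of 6, LONP1 above in 3 and below in 2 (P and N), and CLPX below in 4. The share of all genes was not counted for these 6 animals, nor for the TRAP1 and HSPA9 counts.

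**Figure D2:**
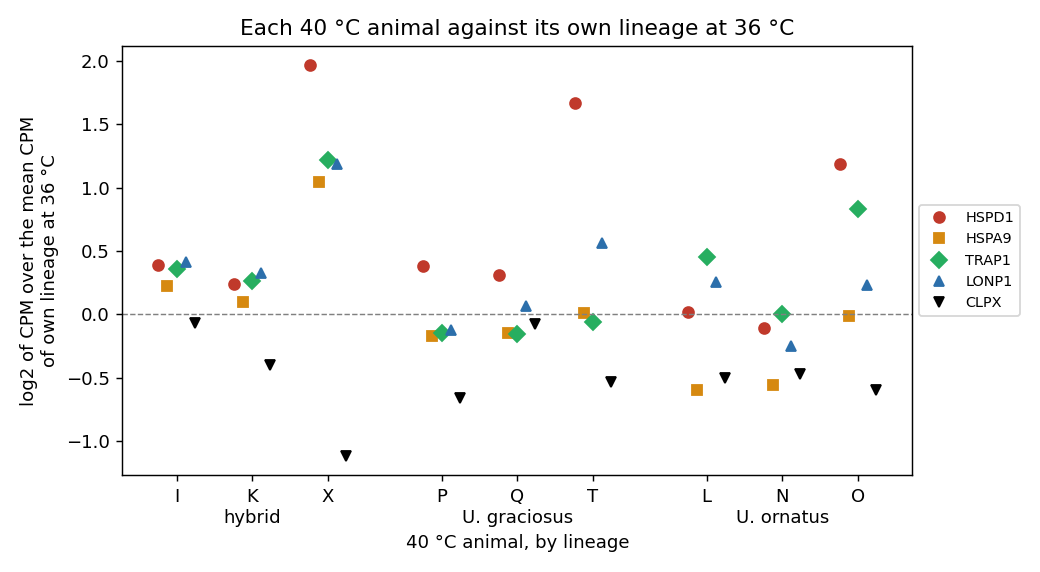
Each of the 9 animals at 40 °C, by lineage, as log2 of its CPM over the mean CPM of its own lineage at 36 °C; each marker is a gene. HSPD1 stands far above 0 in X, T and O, and CLPX lies below 0 in all 9 animals.

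The response was next taken within each lineage. Each SE came from the 1 fit to all 18 libraries, where all groups share 1 estimate of the spread of a gene. It does not measure the spread within the lineage named. In hybrids the heat differences were 1.09 ± 0.54 for HSPD1, 0.52 ± 0.32 for HSPA9, 0.68 ± 0.31 for TRAP1, 0.70 ± 0.24 for LONP1 and -0.46 ± 0.26 for CLPX (log2 ± SE, 3 animals against 3). In U. graciosus they were 0.93 ± 0.54 for HSPD1, -0.10 ± 0.32 for HSPA9, -0.12 ± 0.31 for TRAP1, 0.20 ± 0.24 for LONP1 and -0.40 ± 0.26 for CLPX. In U. ornatus they were 0.49 ± 0.54 for HSPD1, -0.36 ± 0.32 for HSPA9, 0.47 ± 0.31 for TRAP1, 0.10 ± 0.23 for LONP1 and -0.52 ± 0.26 for CLPX. With all animals HSPD1 and LONP1 were thus positive and CLPX negative in each lineage, while HSPA9 and TRAP1 had mixed signs. LONP1 in U. graciosus was at -0.03 without T. HSPD1 in U. ornatus was at -0.06 without O, and TRAP1 in U. graciosus, its only negative value, was at 0.22 without J and at 0.02 with limma voom. Without X, T and O, HSPD1 was at 0.31 in hybrids, 0.34 in U. graciosus and -0.04 in U. ornatus, and CLPX was at -0.22 in hybrids, -0.35 in U. graciosus and -0.48 in U. ornatus. HSPA9 was then at 0.16 in hybrids, -0.17 in U. graciosus and -0.58 in U. ornatus, TRAP1 at 0.31 in hybrids, -0.16 in U. graciosus and 0.25 in U. ornatus, and LONP1 at 0.37 in hybrids, -0.04 in U. graciosus and 0.03 in U. ornatus. No member passed the threshold in any lineage with edgeR, DESeq2 or limma voom; edgeR called 0% of all genes in hybrids, 0% in U. graciosus and 0.782% in U. ornatus. The smallest adjusted p among members in hybrids was 0.570, for LONP1 (unadjusted p = 0.00924), and TRAP1 in hybrids was the only other value at an unadjusted p under 0.05 (0.0420). Non-overlap of 3 animals with 3 was seen for LONP1 in hybrids, all above, as in 5.11% of all genes; for HSPD1 in U. graciosus, all above, as in 7.25%; and for CLPX in U. ornatus, all below, as in 11%. As counts over the library total, those of LONP1 and HSPD1 remained and that of CLPX did not.

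**Figure D3:**
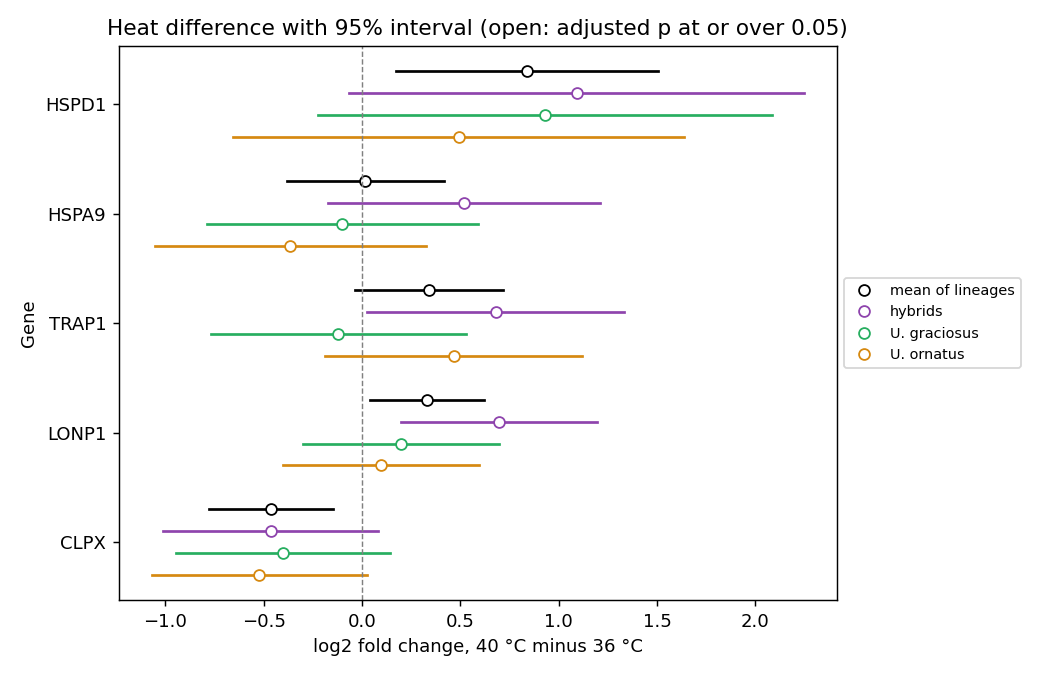
Log2 fold change at 40 °C over 36 °C with its 95% interval, as the mean of the lineages and in each lineage; open circles mark values that did not pass the adjusted threshold. All 20 values are open, and the widest intervals are those of HSPD1.

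Whether the heat difference itself depended on lineage was tested with interaction terms. None passed for the 5 genes, against 0% of all genes called for hybrids minus U. graciosus, 0% for hybrids minus U. ornatus and 0.00631% for U. graciosus minus U. ornatus, and none had an unadjusted p under 0.05. The largest for hybrids minus U. ornatus was that of HSPA9, 0.88 (95% interval -0.09 to 1.86, adjusted p = 0.560). For TRAP1 the difference of hybrids minus U. graciosus was 0.80 (95% interval -0.12 to 1.72, adjusted p over 0.99). These were 0.74 for HSPA9 and 0.47 for TRAP1 without X, T and O. For LONP1 the interaction was 0.50 (-0.20 to 1.20) for hybrids minus U. graciosus and 0.60 (-0.10 to 1.30) for hybrids minus U. ornatus, against 0.40 and 0.34 without X, T and O. These intervals run from near 0 to a difference of more than 1 log2 unit, so 3 animals a group left differences of that size undetermined. For CLPX the estimates were smaller, -0.06 (-0.83 to 0.71) for hybrids minus U. graciosus and 0.06 (-0.71 to 0.83) for hybrids minus U. ornatus. HSPD1 had the widest intervals, at 0.16 (-1.46 to 1.78) for hybrids minus U. graciosus and 0.60 (-1.02 to 2.22) for hybrids minus U. ornatus. Its value for U. graciosus minus U. ornatus was 0.44 (-1.18 to 2.06).

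HSPD1 and HSPA9, which act in succession on imported proteins, were then compared within each animal as the ratio of their counts, a quantity that library scaling does not enter. The pair was chosen after its values were seen, from all 10 pairs of the 5 genes. HSPD1 had 1.42, 1.39 and 2.39 counts per HSPA9 count in hybrids I, K and X at 40 °C, against 1.295, 1.33 and 1.12 in A, B and D at 36 °C. In U. graciosus the ratio was 1.49, 1.39 and 3.21 in P, Q and T at 40 °C, against 1.10, 1.001 and 0.941 in J, R and S at 36 °C. In U. ornatus it was 1.76, 1.57 and 2.64 in L, N and O at 40 °C, against 0.854, 1.45 and 1.06 in E, F and H at 36 °C. All 9 animals at 40 °C were thus above every 36 °C animal of their lineage, the 6 other than X, T and O included, though the margin was small between K and B in hybrids and between N and F in U. ornatus. X, T and O had the highest ratio of their groups. The ratio averaged 1.73 ± 0.57 at 40 °C and 1.25 ± 0.12 at 36 °C in hybrids, 2.03 ± 1.03 and 1.02 ± 0.08 in U. graciosus, and 1.99 ± 0.57 and 1.12 ± 0.30 in U. ornatus (SD, n = 3 each). When every other gene tested took the place of HSPA9, 0.732% gave 9 of 9, and when every other gene took the place of HSPD1, 0.0505% did. Each share keeps 1 gene of the chosen pair, so neither shows how often the best of 10 pairs would reach 9. Of the other pairs, TRAP1 per CLPX and LONP1 per CLPX lay above in 7 of 9, HSPD1 per LONP1 and HSPD1 per CLPX in 5, HSPA9 per CLPX in 4, HSPD1 per TRAP1 in 3 and TRAP1 per LONP1 in 2. HSPA9 per TRAP1 lay below in 5 of 9, HSPA9 per LONP1 below in 3 and TRAP1 per LONP1 below in 1, and none of these pairs reached 9. Shares over all genes were not counted for these other pairs, and CLPX alone, in CPM, lay below in 7 of 9. Because the pair was picked from these values, no test is given.

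**Figure D4:**
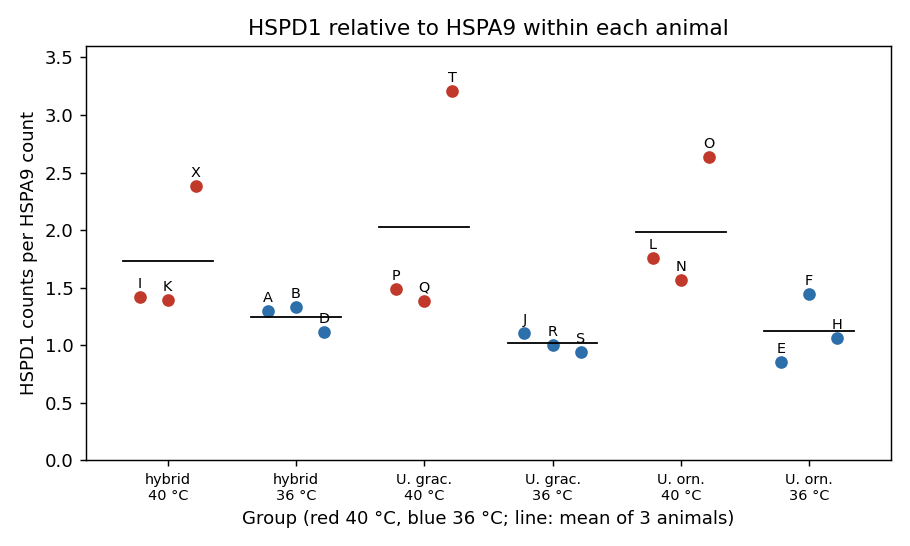
HSPD1 counts per HSPA9 count in each animal, by lineage and temperature, with the mean of 3 animals as a bar. The 40 °C animals lie at 1.39 to 3.21 and the 36 °C animals at 0.854 to 1.45, and within each lineage the temperatures do not overlap.

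Between lineages, averaged over both temperatures, HSPA9, TRAP1 and CLPX were higher in hybrids than in U. ornatus. The difference was 0.83 ± 0.23 for HSPA9 (log2 ± SE; edgeR adjusted p = 0.0116), 1.12 ± 0.22 for TRAP1 (adjusted p = 0.00130) and 0.60 ± 0.18 for CLPX (adjusted p = 0.0179), with 6 animals a side. These 3 of 5 stand beside 18.2% of all genes that were called higher in hybrids than in U. ornatus. In TRAP1 the groups did not overlap at either temperature: 83.0 to 160.5 CPM in hybrids against 34.3 to 61.1 in U. ornatus at 40 °C, and 54.6 to 93.2 CPM in hybrids against 30.2 to 36.4 in U. ornatus at 36 °C. HSPA9 was apart at 40 °C, with 353 to 682 CPM in hybrids against 167 to 250.4 in U. ornatus, and overlapped at 36 °C. CLPX was apart at 36 °C, with 142 to 180.0 CPM in hybrids against 92.7 to 123 in U. ornatus; at 40 °C hybrid X, at 72.3 CPM, lay within the U. ornatus range. LONP1 was narrowly apart at 40 °C, with 37.9 to 68.7 CPM in hybrids against 25.9 to 36.8 in U. ornatus. All 3 hybrids above all 3 U. ornatus was thus seen for 3 of 5 members at 40 °C, as in 15.8% of all genes, for 2 of 5 at 36 °C, as in 20.9%, and for TRAP1 alone at both, as in 8.76%. Those at 40 °C rest on the TMM scale. As counts over the library total, U. ornatus O lay above hybrids I and K in TRAP1, HSPA9 and LONP1. O had 1305, 5349 and 774 counts of these genes in 15780346, and I had 2123, 9214 and 959 in 27282135. At 36 °C TRAP1 and CLPX stayed apart on that scale. Without hybrid I, CLPX was no longer called (0.48, adjusted p = 0.0540), while HSPA9 and TRAP1 were called in every alternative, with adjusted p of at most 0.0362 and 0.00449.

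HSPD1 was at 0.83 ± 0.38 between hybrids and U. ornatus and was not called (adjusted p = 0.106). It was called without U. ornatus O (1.10, adjusted p = 0.0415) and without X, T and O (0.71, adjusted p = 0.0493), where 19.8% of all genes were called higher. LONP1 was at 0.27 ± 0.17 (adjusted p = 0.226). The estimates for HSPD1 and HSPA9 were nearly equal, but the SE of HSPD1 was larger, so the test result alone does not set them apart.

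In U. graciosus, TRAP1 (0.82 ± 0.22, adjusted p = 0.0100) and CLPX (0.82 ± 0.18, adjusted p = 0.00330) were higher than in U. ornatus by edgeR. These 2 of 5 stand beside 16% of all genes called higher, and both calls held in every alternative (adjusted p of at most 0.0302 and 0.0109). TRAP1 did not overlap at 40 °C, with 66.5 to 71.2 CPM in U. graciosus against 34.3 to 61.1 in U. ornatus, nor at 36 °C, with 55.1 to 105.3 CPM in U. graciosus against 30.2 to 36.4 in U. ornatus. CLPX did not overlap at either temperature, and HSPA9 did not at 40 °C. All 3 U. graciosus above all 3 U. ornatus was seen for 3 of 5 members at 40 °C, as in 18.5% of all genes, for 2 of 5 at 36 °C, as in 20.1%, and for TRAP1 and CLPX at both temperatures, as in 9.9%. As counts over the library total, U. ornatus O lay above P, Q and T at 40 °C in TRAP1 and HSPA9. O had 1305 and 5349 counts of these genes in 15780346, and Q had 1947 and 8217 in 26381699. On that scale TRAP1 stayed apart at 36 °C and CLPX at both temperatures. HSPD1 (0.34 ± 0.38), HSPA9 (0.43 ± 0.23) and LONP1 (-0.15 ± 0.17) did not pass.

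Between hybrids and U. graciosus none of the 5 genes passed with edgeR or DESeq2, beside 1.82% of all genes called by edgeR. The differences were 0.49 ± 0.38 for HSPD1, 0.40 ± 0.23 for HSPA9, 0.30 ± 0.22 for TRAP1, 0.42 ± 0.17 for LONP1 and -0.22 ± 0.18 for CLPX (log2 ± SE). LONP1 had the smallest adjusted p, 0.223, and was the only member at an unadjusted p under 0.05 (0.0221). The 95% intervals reached 1.30 for HSPD1, 0.89 for HSPA9 and 0.76 for TRAP1, so differences of that size were not resolved. The comparisons between lineages share animals: the hybrids, for example, enter both hybrid comparisons. Reads of all lineages were aligned to the genome of Sceloporus undulatus, another genus, and mapping rates by lineage were not analysed here. Hepatocyte marker sums also moved with lineage, at 20736 to 78846 CPM in U. ornatus, against 25422 to 126887 in hybrids and 51718 to 124068 in U. graciosus. Stellate cell and fibroblast sums were 100.6 to 254.55 CPM in U. ornatus, against 254.57 to 669.6 in U. graciosus and 236 to 2970 in hybrids. Macrophage sums were 406 to 1170 CPM in U. ornatus, against 261 to 442 in U. graciosus and 309 to 737 in hybrids. The part of these sums was not tested either.

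**Figure D5:**
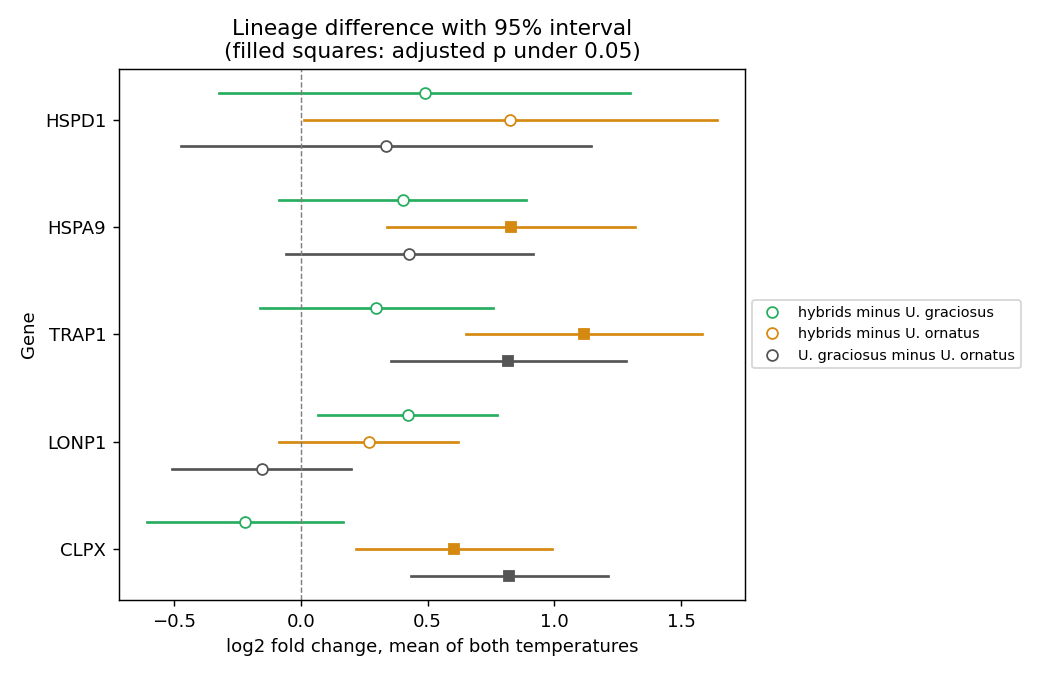
Log2 differences between lineages, averaged over both temperatures, with 95% intervals; filled squares passed the adjusted threshold and open circles did not. TRAP1 and CLPX are filled in both comparisons with U. ornatus, HSPA9 only for hybrids minus U. ornatus.

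Ordered by group mean, HSPD1 ran 889 CPM in hybrids at 40 °C, 599 in U. graciosus at 40 °C, 417 in hybrids at 36 °C, 407 in U. ornatus at 40 °C, 314 in U. graciosus at 36 °C and 290 in U. ornatus at 36 °C. Each neighbour in this order overlapped the next, as in HSPA9, which ran from 473 ± 181 CPM in hybrids at 40 °C to 196 ± 47.0 in U. ornatus at 40 °C (SD, n = 3). TRAP1 was highest in hybrids at 40 °C (111 ± 43.2 CPM), with the 2 U. ornatus groups last at 47.4 ± 13.4 at 40 °C and 34.3 ± 3.53 at 36 °C, and the only gap in its order lay between U. graciosus at 40 °C (68.2 ± 2.58) and U. ornatus at 40 °C. LONP1 in hybrids at 40 °C (48.9 ± 17.2 CPM) did not overlap the next group in the order, U. ornatus at 40 °C, though U. graciosus T at 40 °C (39.5 CPM) lay above hybrid K (37.9); the means of its other 5 groups lay within 26.8 to 33.0 CPM. CLPX was highest in U. graciosus at 36 °C (178 ± 38.3 CPM), and its lowest group, U. ornatus at 40 °C (73.2 ± 3.33), did not overlap U. ornatus at 36 °C (105 ± 16.2). The gaps in TRAP1, LONP1 and CLPX rest on the TMM scale. As counts over the library total, U. ornatus O overlapped the neighbouring group in each of them.

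The genes whose animal-to-animal pattern was most like each member were found by Spearman's rho over the 18 animals, after the mean of each lineage was subtracted from log2 CPM, among 10444 genes with a symbol. These values are descriptions over animals that share heat, lineage and library differences. For HSPD1 the closest were AVPI1 (rho 0.91), RBM17, a splicing factor (0.91), and EIF4G2, a translation initiation factor (0.89). For HSPA9 they were PHB, which encodes prohibitin of the inner mitochondrial membrane (0.91), and the proteasome subunits PSMD8 (0.91) and PSMB4 (0.90). For TRAP1 they included TWNK, the mitochondrial DNA helicase (0.92), and GPRC5C (0.87). For LONP1 they were UTP18 (0.82), TUFT1 (0.82) and SPAG6 (0.78), and for CLPX they were AP2A2 (0.95), PAIP2B (0.94) and ACE (0.88). Among themselves, HSPD1 and TRAP1 were each closest to the other (rho 0.74), and LONP1 was closest to TRAP1 (0.67). HSPD1 and HSPA9 stood at 0.64, and CLPX was negative with each of the other 4, at -0.55 with HSPD1. Over the 15 animals other than X, T and O, HSPD1 stood at 0.61 with TRAP1 and 0.62 with HSPA9, while CLPX stood at -0.25 with HSPD1, -0.01 with TRAP1, -0.01 with LONP1 and 0.07 with HSPA9. PHB kept its place as the gene closest to HSPA9 (0.94), whereas UTP18 stood at 0.48 with LONP1. TWNK moved from rank 1 to rank 9 with TRAP1 (0.81).

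Other genes of mitochondrial protein quality control were taken from lists that were chosen with earlier results of these data known. They were described by counts beside all genes tested, whose median heat difference was 0.03 with 53.8% above 0. Of 15 other mitochondrial proteases, 1 fell at 40 °C, beside 0.46% of all genes called lower: PARL, a rhomboid protease of the inner membrane that cleaves PINK1. PARL was at 17.3, 18.1 and 14.0 CPM in the hybrids at 40 °C (I, K, X), against 18.6, 22.6 and 21.98 in A, B and D at 36 °C; at 19.0, 18.9 and 11.999 in U. graciosus P, Q and T at 40 °C, against 24.0, 23.5 and 28.0 in J, R and S at 36 °C; and at 16.3, 14.2 and 10.5 in U. ornatus L, N and O at 40 °C, against 22.6, 29.3 and 25.5 in E, F and H at 36 °C. All 9 animals at 40 °C lay below every 36 °C animal of their lineage, as in 0.303% of all genes. PARL was named because it was called in these same data, so this count is not separate support. It also rests on the TMM scale, with a factor of 1.43 in X against 0.923 in A. As counts over the library total, X did not lie below A. The mean heat difference of PARL was -0.62 ± 0.12 (edgeR adjusted p = 0.0332), and it missed the threshold in 9 of 25 alternatives, the one without X, T and O among them (-0.48, adjusted p = 0.0572). The median of the 15 proteases was -0.12, with 7 above 0.

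The 10 chaperone partners of the matrix, which include the HSPA9 co-chaperones DNAJA3 and GRPEL1 and the prohibitins, had a median of 0.31 with 9 above 0, and none passed with edgeR. The smallest p was that of DNAJA3 (0.67 ± 0.18, adjusted p = 0.0811): 79.3, 87.7 and 82.2 CPM in the hybrids at 40 °C (I, K, X) against 46.1, 69.3 and 59.7 in A, B and D at 36 °C, 73.0, 66.0 and 54.9 in U. graciosus P, Q and T at 40 °C against 54.8, 46.3 and 34.8 in J, R and S at 36 °C, and 56.7, 33.8 and 90.4 in U. ornatus L, N and O at 40 °C against 37.7, 21.1 and 32.9 in E, F and H at 36 °C. DNAJA3 was called by DESeq2 (adjusted p = 0.0162), beside 2.92% of all genes called higher, and by limma voom (adjusted p = 0.0306), beside 1.8%. It was not called in 22 of 25 alternatives, and in edgeR it was at 0.56 without X, T and O (adjusted p = 0.140). With edgeR none of the 16 genes of mitochondrial stress signalling passed (median 0.14, 10 above 0). DDIT3, the transcription factor CHOP, had the smallest p in that list (1.37 ± 0.41, adjusted p = 0.118). DESeq2 called it (adjusted p = 0.0209), limma voom did not (0.43, adjusted p = 0.362), and in edgeR it was at 0.28 without X, T and O. With edgeR none of the 15 genes of mitochondrial content, such as enzymes of the citrate cycle and pore proteins of the outer membrane, passed (median 0.11, 11 above 0), with VDAC3 nearest at 0.32 ± 0.11 (adjusted p = 0.150).

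The cytosolic heat shock list gives the scale of the cytosolic response in the same livers. Of its 14 genes, 4 rose and none fell (median 0.82), beside 0.536% of all genes called higher: HSP90AA1 by 2.64, HSPH1, an HSP110 family chaperone, by 2.96, DNAJA4, an HSP40 co-chaperone, by 3.73 and HSPB6, a small heat shock protein, by 4.77, all with edgeR adjusted p of 0.0339 to 0.0404. In each of the 4 genes the call was lost without X, without O, and when any single animal at 36 °C was left out. It was also lost without T in HSP90AA1, HSPH1 and HSPB6. Over all alternatives the calls were lost in 13 of 24 for HSP90AA1 and DNAJA4, 14 for HSPB6 and 15 for HSPH1. Without X, T and O together the values were 1.04 for HSP90AA1, 1.20 for HSPH1, 1.51 for DNAJA4 and 1.31 for HSPB6, all still called but HSPH1 (adjusted p = 0.0529), against 0.20 for HSPD1. The share of all genes called higher in that fit is not given here, and the 0.536% belongs to the fit with all animals. X, T and O had been set apart by their HSP90AA1 level, so leaving them out lowers the value of that gene by construction. They were also the highest 40 °C animals of their lineage in HSPH1, DNAJA4, HSPB6 and HSPD1. Leaving them out therefore lowers the values of these genes too. A difference between cytosolic and mitochondrial lists was not tested.

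Between hybrids and U. ornatus, where 18.2% of all genes were called higher and 16.9% lower, the content list had more called higher than that share, the proteases and chaperone partners somewhat more and the other lists less, and no list had more called lower; none of this was tested. Of the 15 content genes, 9 were higher in hybrids than in U. ornatus and none lower (median 0.61, 15 above 0, against a median of 0.02 over all genes). Among those with the smallest p were SLC25A3, the phosphate carrier (1.10 ± 0.19), DLAT, a subunit of pyruvate dehydrogenase (0.76 ± 0.14), and ATP5F1A, a subunit of ATP synthase (0.86 ± 0.19), with edgeR adjusted p of at most 0.00270. Chaperone partners were higher in 3 and lower in 1 of 10: PHB2 (0.60) and PHB (0.94), the prohibitins, and DNAJA3 (0.70) were higher, and GRPEL2, a nucleotide exchange factor of HSPA9, was lower (-0.96). Other proteases were higher in 4 of 15 and lower in none: METAP1D (1.26), PMPCB (0.69), SPG7 (0.46) and IMMP2L (1.27). Of the stress signalling genes, HSF1, the heat shock transcription factor, at 1.56 and DELE1, which relays mitochondrial stress to the cytosol, at 0.47 were higher, 2 of 16. Of the heat shock list, HSPB1 alone was higher (2.15, 1 of 14). HSPB1 and GRPEL2 were at low levels. HSPB1 averaged 3.35 CPM at 40 °C (X at 7.38) and 2.21 at 36 °C in hybrids, against 0.400 and 0.956 in U. ornatus. GRPEL2 averaged 1.28 CPM at 40 °C and 0.808 at 36 °C in hybrids, against 2.20 and 1.79 in U. ornatus.

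In U. graciosus against U. ornatus 16% of all genes were called higher and 16.1% lower, and the counts of each list lay near or below these shares. Content genes were higher in 2 of 15 (DLAT, for example, at 0.49), chaperone partners in 2 of 10 (PAM16, of the import motor, at 0.53 and PHB2 at 0.34) and heat shock genes in 1 of 14 (HSPB1 at 1.52). HSPB1 was at a low level here too, averaging 1.76 CPM at 40 °C and 1.77 at 36 °C in U. graciosus. Stress signalling genes were higher in 3 of 16, HSF1 (1.06), DELE1 (0.70) and the kinase EIF2AK1 (0.60), and lower in 2, ASNS (-1.39) and ATF4 (-0.99996). Other proteases were higher in 3 of 15, METAP1D (0.94), IMMP2L (1.57) and SPG7 (0.45), and lower in 2, PMPCA (-0.51) and ATP23 (-0.44). ATF4 and ATP23 fall outside the rule for naming genes and were chosen after their values were seen. No gene of any of the 5 lists passed between hybrids and U. graciosus with edgeR. Several of these calls lay near the threshold: between hybrids and U. ornatus IMMP2L was not called in 19 of 26 alternatives, SPG7 in 8 and PMPCB in 4, DNAJA3 without U. ornatus F (0.59, adjusted p = 0.0526), GRPEL2 without U. ornatus N (-0.80, adjusted p = 0.0627) and DELE1 without hybrid K (0.38, adjusted p = 0.0530). Between U. graciosus and U. ornatus PHB2 was not called in 19, SPG7 in 15, PMPCA in 10, HSPB1 in 8, PAM16 in 6 and METAP1D in 1, without U. ornatus N (adjusted p = 0.0504).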

How the data were processed

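The authors deposited 1 table of raw read counts per gene for 18 liver libraries. Per the submitters' processing notes, Trim Galore 0.6.4, STAR, Subread and DESeq2 were used, and the series' design text names the Sceloporus undulatus genome. Not given in the sources used here are the build, the annotation, the strand setting and the rule for multiply aligned reads. Of 22773 rows, 9041 carry placeholder names. Most counts from 1 to 20 were even (71.8% to 76.4% in a library), and whether 1 count stands for 1 fragment is unsure. Counts were therefore also halved.

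From the deposited counts, genes passing filterByExpr were fitted with edgeR 4.0.16 after TMM scaling (R 4.3.3; quasi-likelihood, robust, 1 mean for each of the 6 groups, all 18 libraries). Contrasts were the mean heat difference, that in each lineage, their differences, and the lineage differences averaged over temperatures. In each contrast p-values of the 15856 genes were adjusted together (Benjamini-Hochberg), with calls at an adjusted p under 0.05. The alternatives were DESeq2 1.42.0, RLE factors, no low-count filter, at least 5 CPM in 3 libraries, limma 3.58.1 voom with quality weights, halved counts, a fit to the compared groups alone, each animal left out, and X, T and O left out.

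Members, gene lists and marker lists were chosen with earlier results of these data known. Members are named throughout; list genes where called, up to 4 by p, or else the smallest p for the mean heat difference; the 3 genes most alike by rho among those with a mean of at least 1 CPM (log2 CPM with a prior count of 2). A few genes that this rule names are not reported here. No list received a test. Sequences were not analysed here.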

Additional observations from a re-analysis of the deposited data

Results flagged for a closer look

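For HSPA9 all 3 hybrids at 40 °C lay above, and all 3 U. ornatus at 40 °C lay below, the mean of their own lineage at 36 °C. U. ornatus O was nearly level with that mean, at -0.0126 on the log2 scale. The heat difference of hybrids minus that of U. ornatus was 0.88 on the log2 scale and did not pass the interaction test (edgeR adjusted p = 0.560).

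For TRAP1 the 3 U. graciosus at 40 °C lay below their lineage's mean at 36 °C, while the hybrids and the U. ornatus at 40 °C lay above theirs. U. ornatus N was level with its mean, at 0.000675 on the log2 scale. The heat difference of hybrids minus that of U. graciosus was 0.80, and that of U. graciosus minus U. ornatus was -0.59 (edgeR adjusted p over 0.99 and of 0.802), so neither passed. U. graciosus J, at 105.3 CPM, was the highest animal of its lineage in TRAP1; without J the U. graciosus heat difference was 0.22.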

How the results depend on the processing

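Of 1295 alternative log2 values over the 50 gene and contrast pairs, 1250 kept direction and side of the threshold, 41 changed sign, 3 gained a call and 1 lost it. With DESeq2 the number of members called for the mean heat difference was 1 (CLPX), against 0. The calls gained were that one and HSPD1 for hybrids minus U. ornatus without O (1.10) and without X, T and O (0.71), and the call lost was CLPX without I (0.48).

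All sign changes concerned uncalled heat values. With limma voom HSPA9 was at -0.0388 for the mean heat difference, TRAP1 at 0.0214 in U. graciosus and CLPX at 0.0209 for hybrids minus U. graciosus. Without X, T and O, HSPA9 was at -0.20 for the mean, LONP1 at -0.0353 in U. graciosus, HSPD1 at -0.0426 in U. ornatus, HSPD1 at -0.0220 and CLPX at 0.127 for hybrids minus U. graciosus, and LONP1 at -0.0614 for U. graciosus minus U. ornatus. Leaving out 1 animal at a time, HSPA9 ranged from -0.11 to 0.13 for the mean. In U. graciosus HSPA9 ranged from -0.20 to 0.000235, TRAP1 from -0.295 to 0.22 and LONP1 from -0.0256 to 0.33, and in U. ornatus HSPD1 ranged from -0.0582 to 0.98. For hybrids minus U. graciosus HSPD1 ranged from -0.59 to 0.74 and CLPX from -0.31 to 0.19. For hybrids minus U. ornatus HSPD1 ranged from -0.16 to 1.15, TRAP1 from -0.14 to 0.49 and CLPX from -0.19 to 0.31. For U. graciosus minus U. ornatus HSPD1 ranged from -0.145 to 0.975, LONP1 from -0.12 to 0.24 and CLPX from -0.0709 to 0.31. The cause was not tested.

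The number of all genes called for the mean heat difference was 158, and 6 to 131 with 1 animal left out and 55 to 849 under the other settings. In U. ornatus it was 124, 5 to 305 and 0 to 847, and for hybrids minus U. graciosus 288, 135 to 281 and 174 to 1064. DESeq2 called 55 genes in hybrids and 38 in U. graciosus, against 0 in each with edgeR, and 3, 92 and 66 for the interactions of hybrids minus U. graciosus, hybrids minus U. ornatus and U. graciosus minus U. ornatus, against 0, 0 and 1 with edgeR. Counts for lineage differences from U. ornatus stayed within 1.5 times. With 3 animals a group, only differences well above their SE can be called. No paired analysis was possible because each animal gave a single library at a single temperature, and the letters that name the animals are never shared between groups.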
